A study of Mus musculus with 30 samples.

Results

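The genes described here encode collagen chains, taken as every gene symbol made of Col, a number, the letter a and a number. The rule found 43 such genes among the 23109 genes or unmatched transcript accessions of the RNA tables, of which 11 encode chains of fibrillar collagens, 8 chains of basement membrane collagens (types IV, XV and XVIII) and 24 chains of other types. The RefSeq gene table lists 44 such symbols, and Col12a1, which matched no accession of the tables, was not analysed here. RPKM, the unit of the levels below, is the read number divided by the transcript's length in kilobases and by the depth of the library. Of the 43 genes, 27 reached the level asked of a tested gene, an RPKM of 1 or more in 2 or more of the 8 libraries.

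The cells were immortalized brown preadipocytes, derived from the interscapular fat depot of C57BL/6J newborns, homozygous for a floxed glucocorticoid receptor gene (GR-flox/flox) and carrying SV40T. Infection with an empty retrovirus (Vec) left the receptor gene intact and infection with a Cre retrovirus (Cre) gave the knockout line, so both groups carried the floxed alleles and SV40T. Cells were plated 4 days ahead, and at confluence they received, for 4 hours, insulin at 0.02 µM, the thyroid hormone T3 at 1 nM, IBMX at 0.5 mM, the glucocorticoid dexamethasone at 2 µg/ml and indomethacin at 0.125 mM. RNA was sequenced at day 0 (D0), after 4 hours (4h), at day 2 (D2) and at day 7 (D7), each time from a single library of each line. No group had replicates, and loss of the receptor cannot be told apart from any other difference between the Vec and the Cre line.

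Collagens are trimers of chains that wind into a triple helix inside the secretory pathway. Type I, the main fibrillar collagen, joins Col1a1 and Col1a2 chains, type III is a trimer of Col3a1, and types V and XI are built into the same fibrils. Type IV forms the sheet of the basement membrane, types XV and XVIII sit at or near that sheet, and type VI forms beaded microfilaments. Preadipocytes resemble fibroblasts and secrete a fibrillar matrix, while a mature fat cell is wrapped in a basement membrane.

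The libraries held from 7.71 M reads (Cre 4h) to 28.9 M (Vec D2). The RPKM of Nr3c1, the receptor gene, was 24.3, 12.9, 21.3 and 32.1 in Vec at D0, 4h, D2 and D7 and 4.81, 4.04, 8.07 and 6.67 in Cre, lower in Cre at every time and at no time 0. Each of 7 adipocyte markers reached an RPKM of 1 in at least 1 of the 8 libraries. At 4h, Adipoq, Plin1, Cidec and Lep had 0 reads in both lines. The summed RPKM of the 7 adipocyte markers lay between 28.2 and 41.2 at D0 and 4h. That sum was 1580 in Vec and 1460 in Cre at D2, and 4020 in Vec and 1420 in Cre at D7. Summed markers of endothelial cells, macrophages and epithelial cells stayed at or below 3.18 in every library and those of muscle, cartilage and Schwann cells at or below 24.2, with Krt14 at 0 reads in all libraries. The sum of 5 brown adipocyte markers was at most 2.96 up to D2, and 65.5 in Vec and 46.3 in Cre at D7. Cox8b made up most of it (49.7 and 41.2), Cidea stood at 7.36 and 1.29, and Ucp1, the defining gene of active brown fat cells, had at most 22 reads in a library. In RNA from whole dishes, fewer cells of a type and less RNA per cell cannot be told apart.

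Type I collagen transcripts were near the top of the whole transcriptome before induction and fell steeply by D2. Ranked by RPKM over all genes, Col1a1 stood at place 3 in Vec D0 and place 1 in Cre D0, and at place 68 in Vec D2 and place 7 in Cre D2. All collagen chains together took 2.32% of the reads of Vec D0 (95% Clopper-Pearson interval 2.318 to 2.33), 2.45% of Cre D0 (2.443 to 2.456), 2.95% of Vec 4h (2.944 to 2.963) and 2.69% of Cre 4h (2.676 to 2.698). The share was then lowest in Vec D2, at 1.54% (1.534 to 1.543), and stood at 2.10% in Cre D2 (2.091 to 2.102), 1.86% in Vec D7 (1.858 to 1.871) and 2.69% in Cre D7 (2.681 to 2.693). These intervals, and those on ratios of reads below, cover counting error only. In each late pair the Cre library had the higher share.

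Col1a1, the major chain of type I collagen, had an RPKM of 1449 in Vec D0, 1542 in Cre D0, 1481 in Vec 4h, 1434 in Cre 4h, 244 in Vec D2, 662 in Cre D2, 796 in Vec D7 and 1521 in Cre D7. The 4 early libraries lay close together and above both D2 libraries, and Vec was the lower of the pair at both late times. Relative to its own D0, Col1a1 stood at 16.9% in Vec and 42.9% in Cre at D2, and at 54.9% in Vec and 98.6% in Cre at D7. Col1a2, its partner chain, had an RPKM of 955 and 1016 at D0, 1109 and 1064 at 4h, 196 and 454 at D2 and 506 and 979 at D7, in Vec and Cre in turn. It followed the course of Col1a1 in both lines, with the lowest value in Vec D2. In the additive model of time and genotype on read counts (edgeR quasi-likelihood test, Benjamini-Hochberg adjustment over 12581 genes), Col1a1 fell by 1.87 (SE 0.43) on the log2 scale from D0 to D2, adjusted p = 0.021. Col1a2 fell by 1.72 (SE 0.39), adjusted p = 0.0197. From D2 to D7 Col1a1 rose by 1.52 (SE 0.42), adjusted p = 0.0493, and Col1a2 had a log2 change of 1.33 (SE 0.38) that missed the threshold of 0.05, adjusted p = 0.0527. Both D2 falls missed the threshold when Vec D0, Cre D0 or Vec D2 was left out. The rise of Col1a1 to D7 missed it when Vec D0, Cre D0, Vec D2, Vec D7 or Cre D7 was left out. Over all alternative fits the D2 log2 change lay between -2.51 and -1.30 for Col1a1 and between -2.22 and -1.24 for Col1a2.

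Col3a1, the only chain of type III collagen, did not follow type I. Its RPKM was 486 in Vec D0, 494 in Cre D0, 884 in Vec 4h, 713 in Cre 4h, 289 in Vec D2, 564 in Cre D2, 379 in Vec D7 and 687 in Cre D7. The highest values were those of the 4h libraries, and Vec D2 and Vec D7 were the lowest of the 8. At D2 it stood at 59.4% of D0 in Vec and 114% in Cre, and at D7 at 77.9% in Vec and 139% in Cre. None of its changes over time passed the test (adjusted p = 0.147 at 4h, 0.58 at D2 and 0.792 at D7, each against D0).

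**Figure D1:**
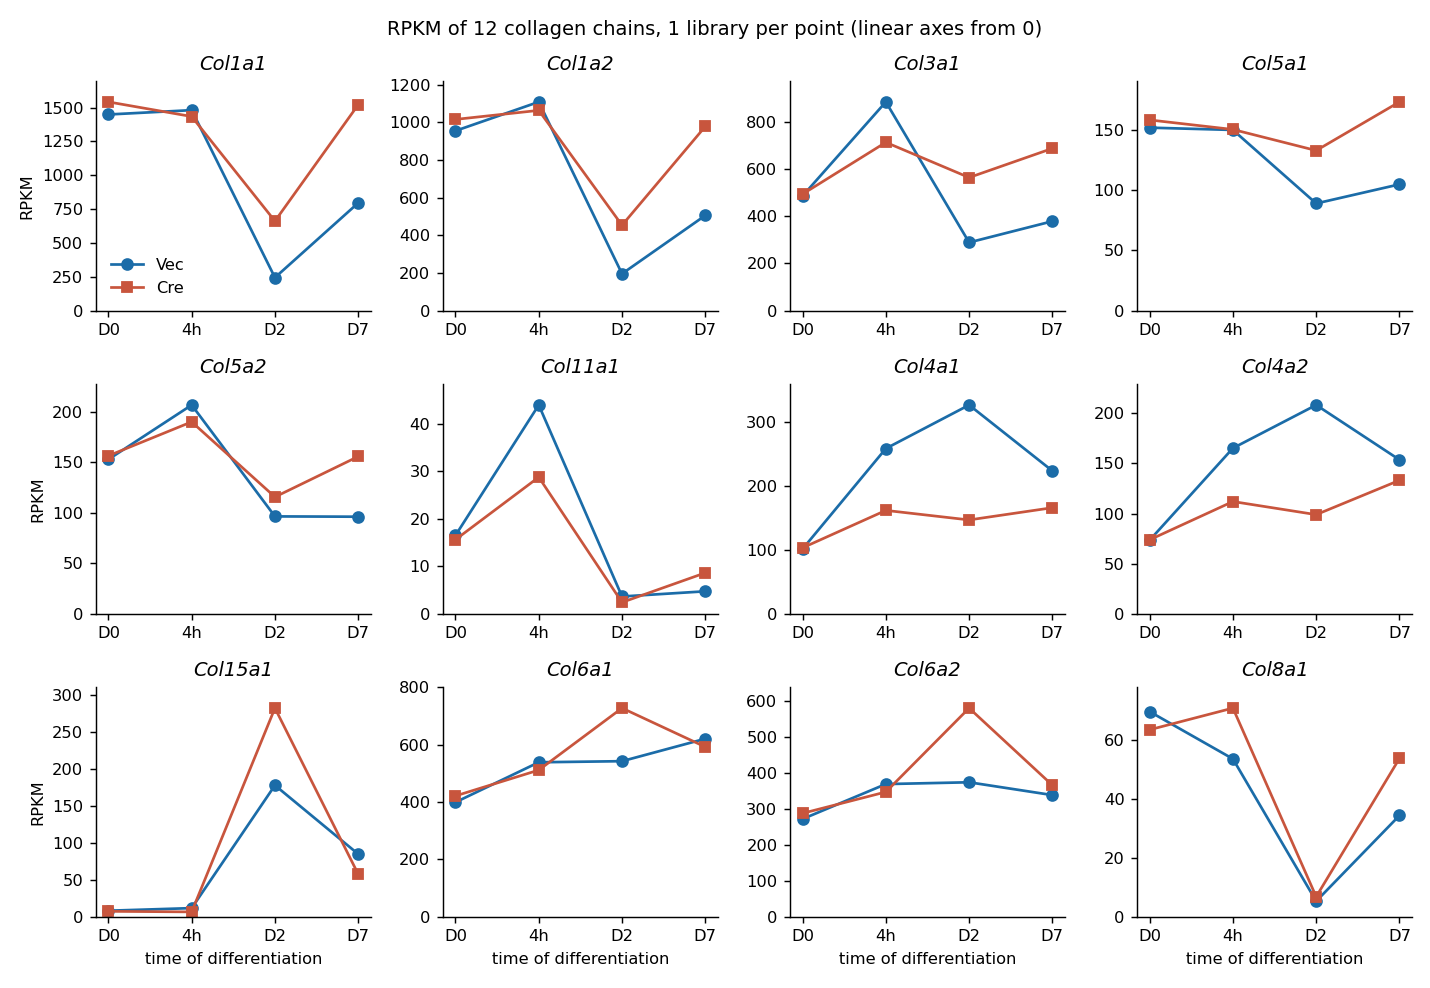
RPKM of 12 collagen chains (vertical axes, linear from 0) at D0, 4h, D2 and D7 in Vec (circles) and Cre (squares), with 1 library per point. Col1a1 and Col1a2 dipped at D2 in both lines, Col4a1 and Col4a2 were highest in Vec D2 (326 and 208), and Col15a1 went from at most 11.7 at D0 and 4h to 178 and 283 at D2.

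To show the DNA next to these genes, the 250 bases upstream of the start site are given for 2 chains that fell at D2 (Col1a2 and Col8a1) and for 2 that did not pass the test there (Col3a1 and Col6a1). Sequences and positions are from RefSeq on GRCm38.p6, and capitals mark 5 motifs on either strand: TATAAA (the core box of some promoters), CCAAT (the box of that name), GGGCGG (an Sp1-type box), CAGACA (a SMAD-type element) and AGAACA (an arm of a glucocorticoid receptor site).
Col1a2 (chr6:4505368-4505617, plus strand): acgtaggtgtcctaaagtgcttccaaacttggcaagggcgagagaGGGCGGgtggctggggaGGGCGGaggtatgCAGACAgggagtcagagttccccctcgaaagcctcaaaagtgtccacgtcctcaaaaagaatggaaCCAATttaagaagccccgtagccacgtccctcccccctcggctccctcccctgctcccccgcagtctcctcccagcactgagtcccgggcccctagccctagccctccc
Col8a1 (chr16:57754738-57754987, minus strand): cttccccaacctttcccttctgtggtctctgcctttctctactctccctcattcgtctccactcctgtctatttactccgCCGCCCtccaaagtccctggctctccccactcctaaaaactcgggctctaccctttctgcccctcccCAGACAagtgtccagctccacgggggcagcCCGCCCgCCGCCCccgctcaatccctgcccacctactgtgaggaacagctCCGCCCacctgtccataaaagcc
Col3a1 (chr1:45311288-45311537, plus strand): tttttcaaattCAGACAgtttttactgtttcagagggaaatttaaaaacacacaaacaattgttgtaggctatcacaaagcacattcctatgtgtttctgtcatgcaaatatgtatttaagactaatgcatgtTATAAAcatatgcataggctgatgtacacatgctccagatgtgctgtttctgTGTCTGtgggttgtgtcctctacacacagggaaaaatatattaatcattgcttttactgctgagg
Col6a1 (chr10:76726045-76726294, minus strand): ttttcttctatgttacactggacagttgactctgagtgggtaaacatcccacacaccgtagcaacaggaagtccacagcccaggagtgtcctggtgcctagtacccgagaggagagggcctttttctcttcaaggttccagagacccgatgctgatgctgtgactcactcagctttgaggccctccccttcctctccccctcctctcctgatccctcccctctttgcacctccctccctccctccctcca
Col1a2 held 2 GGGCGG matches, 1 CCAAT and 1 CAGACA, Col8a1 held GGGCGG matches and 1 CAGACA, Col3a1 held 1 TATAAA and 2 CAGACA, Col6a1 held none of the 5 motifs, and no 2 marked matches overlapped. RefSeq windows of 300 bases, 250 before and 50 after the start, matched 35 of the 43 genes with 38 windows. GGGCGG occurred in 23 of the 38 against 35.7% of all 32851 windows, CCAAT in 13 against 37.4%, CAGACA in 9 against 21.0%, TATAAA in 5 against 13.6% and AGAACA in 2 (Col20a1 and Col9a1) against 18.97%. The windows of Col1a1, Col2a1, Col4a3, Col5a2, Col9a3, Col14a1, Col22a1 and Col26a1 were not used here. A match is a string of letters and was not tested as a binding site.

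The chains of types V and XI, which set the width of the fibrils, were lower than type I at every time. Col5a1 had an RPKM of 152 in Vec D0, 158 in Cre D0, 150.1 in Vec 4h, 150.5 in Cre 4h, 89.0 in Vec D2, 133 in Cre D2, 105 in Vec D7 and 173 in Cre D7. Vec D2 and Vec D7 lay below the other 6 libraries. Col5a2 had an RPKM of 153 and 156 at D0, 207 and 190.0 at 4h, 96.4 and 116 at D2 and 96.1 and 156 at D7, in Vec and Cre in turn. Its 2 lowest values were again those of Vec D2 and Vec D7, and neither chain passed the test at D2 against D0 (adjusted p = 0.127 and 0.0962). Col5a3, the minor chain of type V, had 17.4 and 18.8 at D0, 22.9 and 22.8 at 4h, 15.3 and 22.6 at D2 and 23.1 and 20.7 at D7. Col11a1, a chain of type XI, had an RPKM of 16.5 and 15.6 at D0, 43.9 and 28.7 at 4h, 3.62 and 2.38 at D2 and 4.71 and 8.59 at D7, in Vec and Cre. The 4h libraries were the highest and all 4 late libraries were lower than both D0 libraries. Its log2 change was 1.28 (SE 0.37) at 4h, adjusted p = 0.052 in edgeR, and it fell by 2.46 (SE 0.38) from D0 to D2, adjusted p = 0.00706. Without Vec D0 the D2 fall no longer passed.

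The remaining fibrillar chains were low. Col2a1, the cartilage collagen, had an RPKM of 1.43 and 1.34 at D0, 0.779 and 1.42 at 4h, 0.0945 and 0.162 at D2 and 0.282 and 0.355 at D7, in Vec and Cre. All 4 late libraries were below the early ones, and it fell by 3.49 (SE 0.32) on the log2 scale from D0 to D2 (edgeR adjusted p = 0.00285). Col11a2, a further chain of type XI, had 0.327 and 0.296 at D0, 0.204 and 0.208 at 4h, 1.39 and 1.09 at D2 and 1.15 and 0.686 at D7. It rose by 1.96 (SE 0.25) from D0 to D2 (adjusted p = 0.00455), a call that was lost without Vec D0. Col27a1, a fibrillar chain of the growth plate, had 1.43 and 1.53 at D0, 0.855 and 1.02 at 4h, 1.22 and 2.04 at D2 and 6.99 and 3.52 at D7. Its D7 libraries were the highest, and it rose by 1.92 (SE 0.41) on the log2 scale from D0 to D7 (adjusted p = 0.0478). That call was lost in 5 of the 8 fits without 1 library, those without Vec D0, Cre D0, Vec 4h, Cre 4h or Vec D7. Col24a1 stayed at or below 0.522. Among the 10 tested fibrillar genes, 1 rose and 4 fell from D0 to D2, with a median log2 change of -0.56 (17.7% of all genes rose and 21.0% fell, with a median of 0.02).

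In the basement membrane class, Col4a1 and Col4a2, whose products form the common type IV trimer, rose from D0 to 4h and from D0 to D2. Col4a1 had an RPKM of 101 in Vec D0, 103 in Cre D0, 258 in Vec 4h, 162 in Cre 4h, 326 in Vec D2, 147 in Cre D2, 223 in Vec D7 and 166 in Cre D7. All 6 libraries after induction were above both D0 libraries, and Vec was above Cre at 4h, D2 and D7. Col4a2 had 73.4 in Vec D0, 73.8 in Cre D0, 165 in Vec 4h, 112 in Cre 4h, 208 in Vec D2, 98.9 in Cre D2, 154 in Vec D7 and 133 in Cre D7, with the same order of Vec and Cre. Col4a1 rose by 1.07 (SE 0.28) on the log2 scale at 4h, edgeR adjusted p = 0.042, and Col4a2 by 0.97 (SE 0.27), adjusted p = 0.0467. At D2 against D0 they rose by 1.06 (SE 0.28), adjusted p = 0.0312, and 0.94 (SE 0.27), adjusted p = 0.0373. At D7 against D0 their log2 changes were 0.98 (SE 0.28) and 1.04 (SE 0.27), which did not pass the edgeR test (adjusted p = 0.0821 and 0.0666). DESeq2 called both genes at D7 against D0. The 2 genes lie head to head and their RefSeq start sites overlap by 22 bases. Both 4h calls were lost without Vec D0 (log2 changes 0.69 and 0.65), Cre D0, Vec 4h, Cre 4h, Vec D7 or Cre D7. With no genotype term in edgeR both were lost too (adjusted p 0.0922 to 0.0954), and Col11a1 was the only collagen gene called at 4h. In limma the 4h call of Col4a2 was lost on log2(RPKM + 1) and on log2(RPKM + 5) (adjusted p = 0.0523 and 0.0583). Both D2 calls were lost without Vec D0 or Vec D2 and with no genotype term. That of Col4a2 was also lost without Vec 4h, Cre 4h, Vec D7 or Cre D7.

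The other basement membrane chains took separate courses. Col15a1, the chain of type XV collagen, which links basement membranes to the fibrillar matrix, had an RPKM of 8.22 and 7.39 at D0, 11.7 and 6.64 at 4h, 178 and 283 at D2 and 84.9 and 57.7 at D7, in Vec and Cre in turn. All 4 late libraries were above all 4 early ones. It rose 21.7-fold in Vec and 38.2-fold in Cre from D0 to D2, and its rank by RPKM went from 6548 in Vec D0 to 116 in Vec D2. The fitted rise was 4.90 (SE 0.44) on the log2 scale, adjusted p = 0.00277 in edgeR, and it passed in all 8 fits that left out 1 library. It fell by 1.62 (SE 0.38) from D2 to D7, adjusted p = 0.0322, a call lost without Vec D0, Cre D0, Cre D2, Vec D7 or Cre D7. Col4a5, a type IV chain of another trimer, had 24.6 and 25.5 at D0, 25 and 27.1 at 4h, 9.03 and 10.2 at D2 and 16.1 and 21.5 at D7, in Vec and Cre. It fell by 1.41 (SE 0.13) from D0 to D2, adjusted p = 0.00293, opposite in direction to Col4a1 and Col4a2, the common type IV pair. Col4a6, a partner chain of Col4a5, had 1.21 and 1.17 at D0, 1.71 and 1.62 at 4h, 0.234 and 0.352 at D2 and 1.05 and 1.55 at D7, and fell by 2.06 (SE 0.27) from D0 to D2, adjusted p = 0.00474. Both D2 libraries were its lowest. Col18a1, the precursor of endostatin, had 7.55 and 8.69 at D0, 7.88 and 9.75 at 4h, 11.2 and 9.15 at D2 and 12.3 and 11.2 at D7. None of its changes passed the main edgeR test, while DESeq2 called it at D7 against D0. Col4a3 and Col4a4, chains best known from the kidney, stayed at or below 0.0917.

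None of the 3 main chains of type VI collagen fell at D2. Col6a1 had an RPKM of 399 and 421 at D0, 539 and 511 at 4h, 542 and 727 at D2 and 621 and 592 at D7, in Vec and Cre in turn. Both D0 libraries were the lowest. Col6a2 had 272 and 288 at D0, 369 and 347 at 4h, 374 and 580.3 at D2 and 338 and 366 at D7, with Cre D2 above all others. Col6a3, the largest chain, had 161 and 182 at D0, 164 and 168 at 4h, 176 in both D2 libraries and 118 and 130 at D7. None of the 3 passed the test at D2 against D0 (edgeR adjusted p = 0.0632, 0.0506 and 0.942). DESeq2 called Col6a1 and Col6a2 higher at D2. Col6a5, a minor chain, had 1.13 and 1.17 at D0, 0.965 and 0.907 at 4h, 0.0373 and 0.138 at D2 and 0.135 and 0.566 at D7. It fell from D0 to D2 (log2 change -3.87, adjusted p = 0.00856), a call lost without Vec D0 or Vec D2.

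Among the other chains, Col8a1, a network-forming collagen of vessel walls and mesenchymal cells, gave the deepest fall at a high level. Its RPKM was 69.5 in Vec D0, 63.3 in Cre D0, 53.5 in Vec 4h, 70.7 in Cre 4h, 5.28 in Vec D2, 6.8 in Cre D2, 34.3 in Vec D7 and 53.6 in Cre D7. Both D2 libraries lay far below the other 6. It fell by 3.51 (SE 0.21) from D0 to D2, adjusted p = 0.0019, and rose by 2.97 (SE 0.20) from D2 to D7, adjusted p = 0.00325, and both calls stood in all 8 fits that left out 1 library. Col16a1, which sits on fibrils and at cell contacts, had 21.8 and 23.8 at D0, 27.9 and 27.8 at 4h, 3.59 and 9.48 at D2 and 13.2 and 27.1 at D7, in Vec and Cre. It fell by 1.95 (SE 0.40) at D2 against D0, adjusted p = 0.015, which was lost without Vec D0 or Vec D2. Col28a1, a chain known from peripheral nerve, had 1.94 and 1.38 at D0, 4.20 and 3.62 at 4h, 0.205 and 0.695 at D2 and 12.6 and 13.0 at D7. It was lowest at D2 and highest at D7, a rise between them of 4.97 (SE 0.54), adjusted p = 0.00556. The fall of Col28a1 from D0 to D2 (log2 change -1.94, SE 0.52) was lost without Vec D0, Cre D0, Vec D2, Vec D7 or Cre D7. Its Vec D2 value rests on 25 reads.

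Col7a1, the chain of anchoring fibrils, had an RPKM of 4.13 and 3.72 at D0, 2.83 and 2.69 at 4h, 0.689 and 0.762 at D2 and 1.44 and 2.03 at D7, in Vec and Cre. It fell by 2.46 (SE 0.20) from D0 to D2 (edgeR adjusted p = 0.00234), with both D2 libraries the lowest. Col20a1 had 0.721 and 1.34 at D0, 0.759 and 1.15 at 4h, 1.80 and 2.66 at D2 and 1.97 and 1.88 at D7, and rose by 1.11 (SE 0.27) from D0 to D2 (adjusted p = 0.0239). The rise of Col20a1 was lost without Vec D0, Vec D2 or Cre D2, and with no genotype term. Col14a1, which binds the surface of fibrils, had 0.865 and 0.759 at D0, 2.14 and 1.75 at 4h, 0.0806 and 0.895 at D2 and 0.746 and 2.70 at D7. Col8a2, the partner chain of Col8a1, had 0.904 and 0.996 at D0, 1.96 and 2.94 at 4h, 1.65 and 1.87 at D2 and 0.852 and 3.71 at D7. Neither passed a test over time in the main edgeR fit, and in both Cre D7 was the highest library. DESeq2 called Col8a2 at 4h against D0 and Col14a1 at D7 against D2. Of all 43 genes, 15 stayed below an RPKM of 1 in every library, with Col13a1 at 0 reads in all 8, which allows up to 3 reads in a library.

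**Figure D2:**
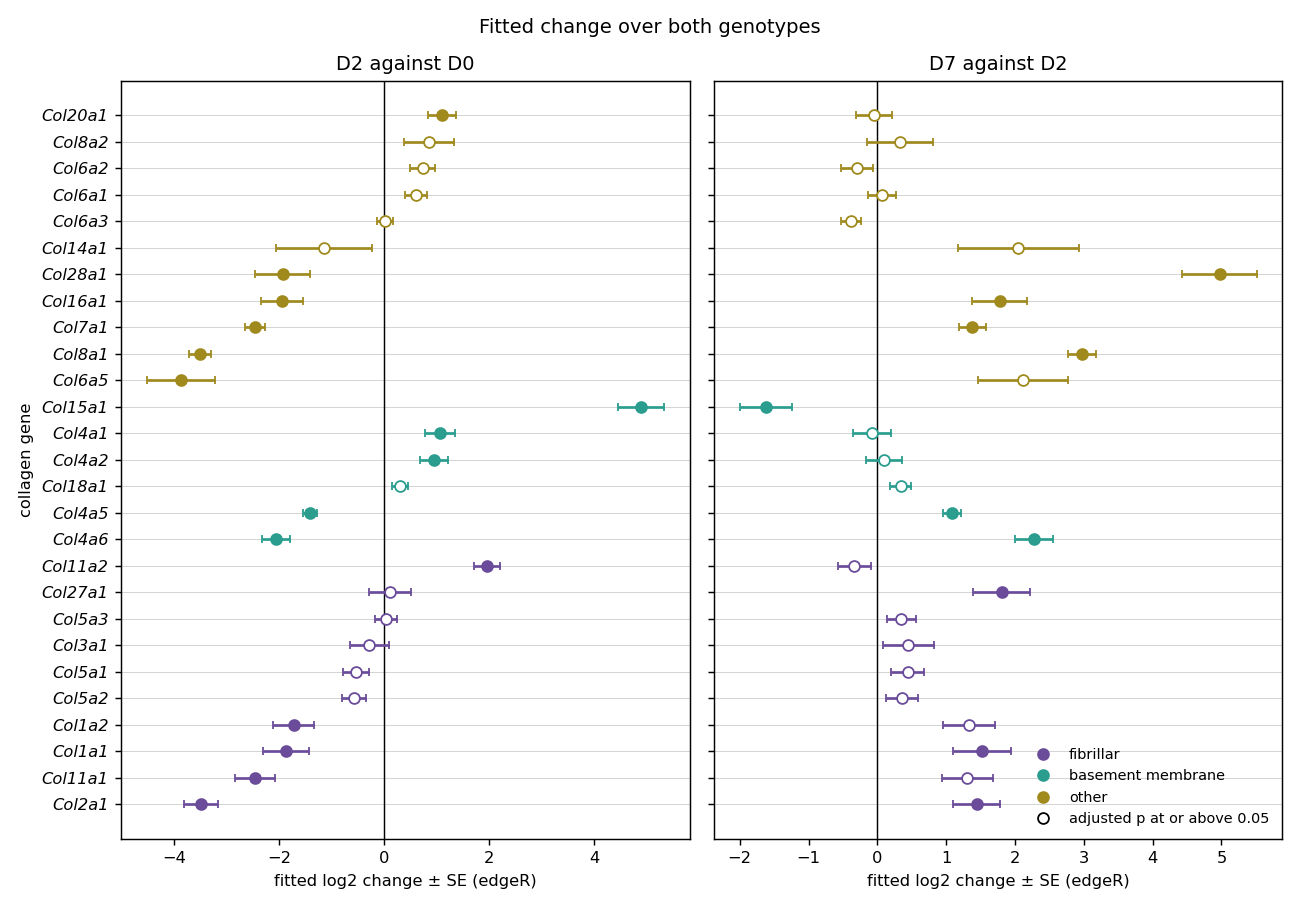
Fitted log2 change with its SE (horizontal axis, edgeR, over both genotypes) of the 27 tested collagen genes, from D0 to D2 (left) and from D2 to D7 (right), on separate scales, with filled points for an adjusted p under 0.05. At D2 against D0, 5 genes rose and 11 fell, and at D7 against D2, 9 rose and 1 (Col15a1) fell.

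Counted over the class, D2 had the most changes. At 4h against D0, 2 of the 27 tested collagen genes rose (12.2% of all tested genes rose) and 0 fell (13.1% fell). The 0 falls compare with 5 of 27 at an unadjusted p under 0.05 in either direction (41.6% of all genes), and DESeq2 also called 0 falls, with 5 rises. At D2 against D0, 5 rose (17.7% of all genes) and 11 fell (21.0%). The 11 that fell were Col1a1, Col1a2, Col2a1, Col4a5, Col4a6, Col6a5, Col7a1, Col8a1, Col11a1, Col16a1 and Col28a1. The median log2 change of the tested collagen genes was -0.54, beside 0.02 for all genes. The summed RPKM of the preadipocyte markers was 512 and 513 at D0 and 184 and 246 at D2, in Vec and Cre, with Ly6a (183 and 200.0 to 19.2 and 34.9) and Thy1 (134 and 106 to 17.8 and 22.1) making up most of the drop. Dlk1 was higher at D2 than at D0 (53.2 and 58.9 to 69.3 and 91.2), and Cd34 was higher at D2 in Vec (28.0 to 33.0) and lower in Cre (32.8 to 26.0). The part of these markers in the falls of the collagen genes was not tested. At D7 against D0, 4 rose (Col11a2, Col15a1, Col27a1 and Col28a1, with 5.68% of all genes) and 2 fell (Col2a1 and Col7a1, with 2.42%). At D7 against D2, 9 rose (15.4%) and 1 fell (8.93%), with a median of 0.45 beside 0.04 for all genes.

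These counts leaned on single libraries, and each fit without 1 library leaves a single library at that time. Calls over all genes also dropped steeply in some of these fits, in each comparison over time. The lost calls thus cannot be read as particular to collagen genes. Without Vec D0, 6 of the 16 D2 calls were kept, while the calls over all genes went from 4867 to 1018, and without Vec D2 8 of the 16 were kept and 2 others were gained. At 4h no call was left without Vec D0, Cre D0, Vec 4h or Cre 4h. At D7 against D0 the 6 calls went to 0 without Vec D0 or Cre D0 and to 1 other gene (Col8a2) without Vec D7. At D7 against D2 the 10 calls went to 4 without Vec D2 and to 6 without Vec D7 or Cre D7.

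Within each line, genes were counted by size alone, as a change of 1 or more in log2(RPKM + 1), over genes whose RPKM was 1 or more in either of the libraries compared. On this scale the change of a low gene is understated. From D0 to 4h, 3 of 25 collagen genes were higher and 0 lower in Vec (5.52% and 8.04% of all genes), and 0 of 26 were higher or lower in Cre (3.67% and 3.69%). From D0 to D2, 3 were higher and 10 lower in Vec, of 26 (8.9% and 12.1% of all genes), and 2 higher and 8 lower in Cre, of 26 (5.04% and 7.59%). From D0 to D7, 5 were higher and 2 lower in Vec, of 25 (8.55% and 4.62%), and 4 higher and 0 lower in Cre, of 27 (4.53% and 0.701%). From D2 to D7, 6 were higher and 1 lower in Vec, of 24 (9.81% and 5.01%), and 8 higher and 1 lower in Cre, of 26 (7.41% and 2.07%). With a pseudocount of 0.5, 2 genes were higher in Cre at 4h.

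The makeup of the collagen RNA shifted with these changes. Fibrillar chains made up 73.7% of the summed collagen RPKM in Vec D0, 73.8% in Cre D0, 70.4% in Vec 4h and 71.2% in Cre 4h. They made up 33.7% in Vec D2, 48.8% in Cre D2, 54.0% in Vec D7 and 69.1% in Cre D7. Basement membrane chains made up 4.93% and 4.76% at D0, 8.49% and 6.29% at 4h, 26.4% and 13.7% at D2 and 13.8% and 7.61% at D7, in Vec and Cre. Vec D2 stood farthest from the D0 libraries and Cre D7 nearest among the late ones. Type VI chains took 19.02% in Vec D0, 39.4% in Vec D2 and 37.0% in Cre D2.

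**Figure D3:**
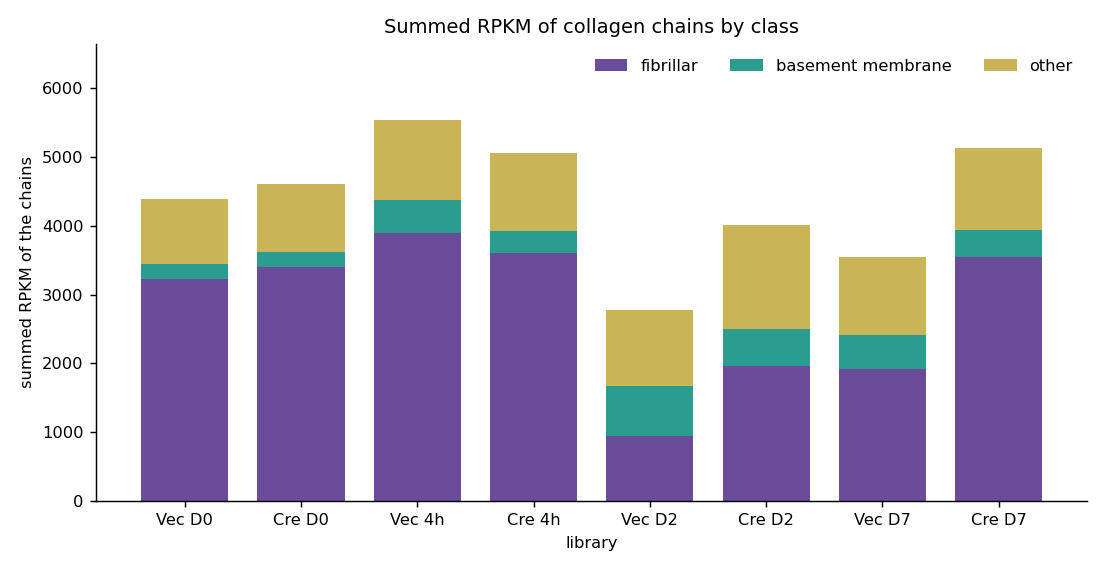
Summed RPKM (vertical axis, from 0) of fibrillar, basement membrane and other collagen chains in each of the 8 libraries, stacked. The fibrillar part was 3232 in Vec D0, 935 in Vec D2 and 1956 in Cre D2, and the basement membrane part 216, 733 and 548.

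Between the lines, collagen levels were close at D0, apart for some chains by 4h and farther apart over the class at D2 and D7. The SD of Cre minus Vec in log2(RPKM + 1) was 0.14, 0.32, 0.671 and 0.569 over the collagen genes at the 4 times. Over all genes it was 0.166, 0.45, 0.448 and 0.456. At D0, 0 of 24 collagen genes past an RPKM of 1 differed at least 2-fold by the size rule in either direction (0.158% of all genes were higher in Cre and 0.275% lower). At 4h, 0 of 25 did (1.65% and 2.59%), and among genes at an RPKM of 10 or more in either 4h library the widest gaps were in Col15a1 (1.77-fold lower in Cre), Col4a1 (1.60-fold), Col11a1 (1.53-fold) and Col4a2 (1.48-fold). At D2, 3 of 21 were at least 2-fold higher in Cre (2.55% of all genes) and 2 were lower (1.54%). At D7, 2 of 26 were at least 2-fold higher (1.39%) and 0 lower (3.12%). By any size, 16 of 21 were higher in Cre at D2 (44.0% of all genes) and 17 of 26 at D7 (53.5%). No test was possible within a time, since 1 library stood on each side.

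The 3 genes higher in Cre at D2 were Col1a1, 2.71-fold (95% exact interval on the reads 2.68 to 2.75), Col1a2, 2.32-fold (2.29 to 2.35), and Col16a1, 2.64-fold (2.39 to 2.93). Col3a1 was 1.95-fold higher, just inside the size limit. At D7 the same 4 genes were between 1.82-fold (Col3a1) and 2.06-fold (Col16a1) higher in Cre, below the limit on the log2(RPKM + 1) scale. The 2 genes past the limit at D7 were low ones, Col14a1 (3.62-fold, 2.82 to 4.70, from an RPKM of 0.746 to 2.70) and Col8a2 (4.35-fold, 3.29 to 5.87, from 0.852 to 3.71), and with a pseudocount of 5 neither passed.

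The 2 genes lower in Cre at D2 were Col4a1, 2.23-fold (2.19 to 2.26), and Col4a2, 2.11-fold (2.07 to 2.15). At D7 Col4a1 was 1.35-fold and Col4a2 1.15-fold lower in Cre. Col15a1 went the other way at D2, 1.59-fold higher in Cre, and was 1.47-fold lower in Cre at D7. Over both late times, 11 of 21 collagen genes were higher in Cre at D2 and at D7 by any size (31.1% of all genes) and 4 were lower at both (33.8%), namely Col4a1, Col4a2, Col11a2 and Col18a1. All 7 non-fibrillar, non-basement-membrane genes past an RPKM of 1 were higher in Cre at D2 by any size (44.0% of all genes). Among them Col6a3 was equal at the digits given, at 176 in both. The summed RPKM of 6 preadipocyte markers, all of which reached an RPKM of 1, was 184 in Vec and 246 in Cre at D2 and 402 in Vec and 564 in Cre at D7. Most of its members were higher in Cre, with Cd34 at D2 (33.0 in Vec and 26.0 in Cre) and Ly6a at D7 (187 and 183) the exceptions. The adipocyte sum was higher in Vec at both times (1580 against 1460, and 4020 against 1420). At D2 Fabp4 (1160 in Vec and 990.0 in Cre) carried that sum, Cebpa was nearly equal (207 and 205), and Adipoq (59.7 and 144) and Plin1 (33.0 and 50.5) were higher in Cre, while at D7 all 7 were higher in Vec. The part of the cell makeup in the difference between the lines was not tested.

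**Figure D4:**
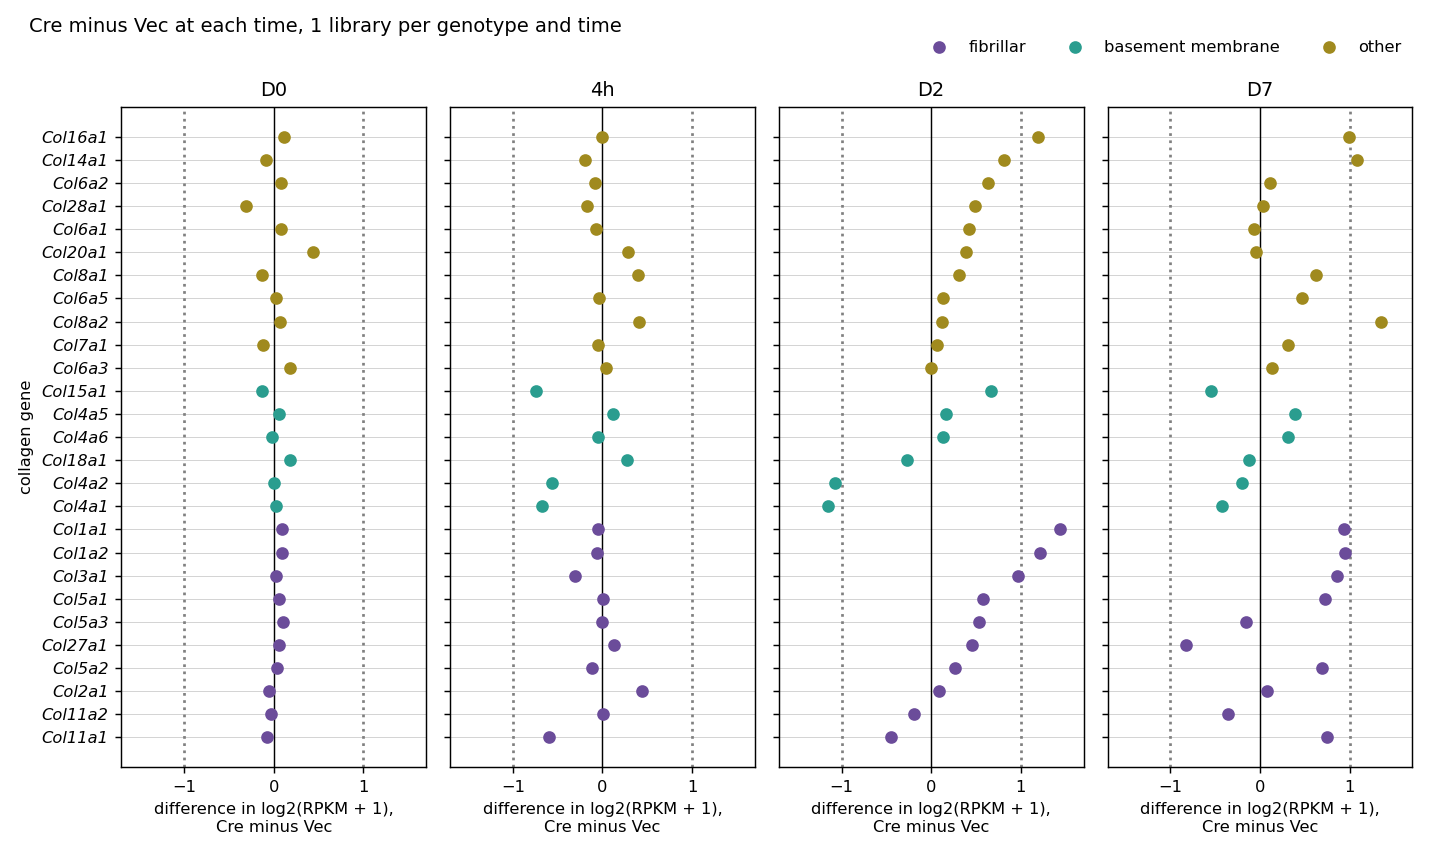
Difference in log2(RPKM + 1), Cre minus Vec (horizontal axes), of the 27 tested collagen genes at D0, 4h, D2 and D7, each point from a single Cre and a single Vec library, and dotted lines at a 2-fold difference. At D2, Col1a1 (1.44), Col1a2 (1.21) and Col16a1 (1.19) lay past the line to the right and Col4a1 (-1.15) and Col4a2 (-1.07) past it to the left.

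The difference between the lines was tested over times. In the additive model, 0 of the 27 collagen genes and 0.0% of all genes differed between Cre and Vec over the 4 times by the edgeR quasi-likelihood test. Nr3c1 itself, lower in Cre at every time, was among the genes not called, so the 0 does not show that the lines were alike. At an unadjusted p under 0.05 there were 2 collagen genes (11.9% of all genes), Col4a1 with a log2 difference of -0.59 (SE 0.20) and Col4a2 with -0.49 (SE 0.19), both at an adjusted p of 0.41, and DESeq2 called 0 collagen genes. A further model asked whether Cre minus Vec at D2 and D7 differed from Cre minus Vec at D0 and 4h. It too called 0 collagen genes and 0.0% of all genes, with 11 of 27 at an unadjusted p under 0.05 (8.29% of all genes). The median was 0.49 over the tested collagen genes and -0.0 over all genes. Col1a1 had a log2 value of 1.22 (SE 0.27), adjusted p = 0.515, Col1a2 1.13 (SE 0.23), adjusted p = 0.49, and Col3a1 1.12 (SE 0.23), adjusted p = 0.507. DESeq2 on the same model called 5 collagen genes higher in Cre late, Col1a1, Col1a2, Col3a1, Col14a1 and Col16a1, with adjusted p from 0.00974 to 0.0348. The share of all genes that DESeq2 called there is not given here, so the 5 cannot be read as particular to collagen genes.

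Many genes whose products hydroxylate, fold, trim and crosslink collagen also fell at D2. The list held 36 measured genes, of which 33 were tested. At D2 against D0, 16 fell and 1, Mia2, which helps load collagen into transport vesicles, rose (21.0% of all genes fell and 17.7% rose), with a median log2 change of -0.69 beside 0.02 for all genes. Lox, the enzyme that starts the crosslinks, had an RPKM of 392 in Vec D0, 386 in Cre D0, 527 in Vec 4h, 391 in Cre 4h, 54.7 in Vec D2, 114 in Cre D2, 322 in Vec D7 and 578 in Cre D7. It was lowest in both D2 libraries and fell by 2.29 (SE 0.42), adjusted p = 0.0114. Serpinh1, the collagen chaperone HSP47, fell by 1.00 (SE 0.22), adjusted p = 0.0176, and P4ha3, a subunit of prolyl hydroxylase, by 2.80 (SE 0.29), adjusted p = 0.00324. Creb3l1, a transcription factor known to drive type I collagen genes, had an RPKM of 61.7 and 59.1 at D0 and 5.40 and 17.7 at D2, in Vec and Cre. From D2 to D7, 15 of the 33 rose and 2 fell (15.4% and 8.93% of all genes). At 4h, Ppib and Tll1 rose and 0 fell (12.2% and 13.1% of all genes; 10 of 33 changed at an unadjusted p under 0.05, beside 41.6% of all genes, and DESeq2 called 6 rises and 0 falls). Tll1, a procollagen proteinase, went from 3.60 and 3.65 at D0 to 31.5 and 43.6 at 4h. By size, 4 of the 33 (Creb3l1, Lox, P3h2 and Plod2) were at least 2-fold higher in Cre at D2 and 0 lower (2.55% and 1.54% of all genes). Without Vec D0 or without Vec D2, 6 of the 17 D2 calls were kept, and those of Lox and Serpinh1 were lost. Of the 17 calls at D7 against D2, 3 were kept without Vec D2, 6 without Cre D7, 8 without Vec D7, 10 without Cre D2 and 11 without Vec D0 or Cre D0. At 4h Ppib was lost without Vec D0, Cre D0 or Vec 4h, and Tll1 without Vec D0.

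**Figure D5:**
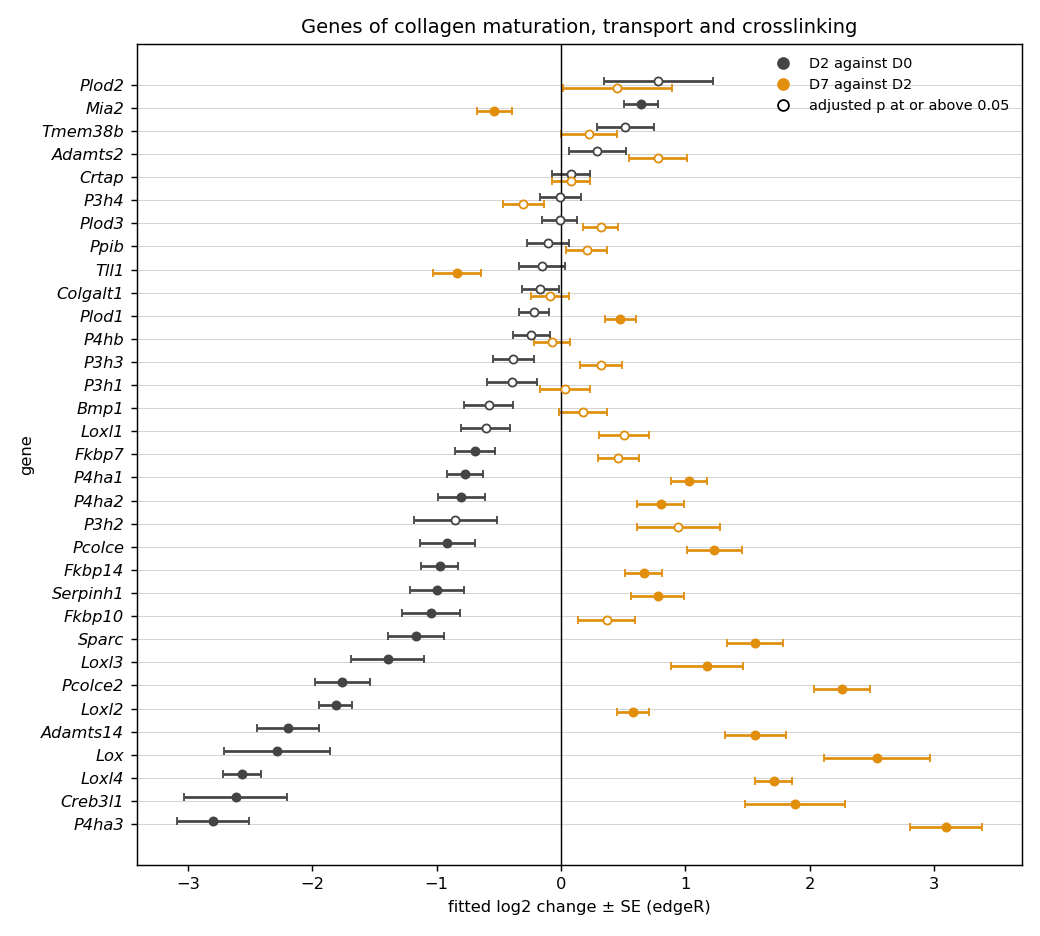
Fitted log2 change with its SE (horizontal axis, edgeR, over both genotypes) of the 33 tested genes of collagen maturation, transport and crosslinking, from D0 to D2 (dark) and from D2 to D7 (orange), with filled points for an adjusted p under 0.05. Most genes lay left of 0 at D2, where 16 fell, and right of 0 from D2 to D7, where 15 rose.

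Collagen receptors fell at D2 as well. Of 9 measured receptor genes 6 were tested, and 5 fell from D0 to D2 (Itga1, Itga11, Itgb1, Ddr1 and Mrc2) while 0 rose by the edgeR test (21.0% of all genes fell and 17.7% rose, and DESeq2 called 6 falls and 0 rises), with all 6 at an unadjusted p under 0.05 (49.7% of all genes). Itga11, an integrin chain that binds fibrillar collagen, had an RPKM of 5.22 and 5.57 at D0, 6.18 and 7.15 at 4h, 0.105 and 0.871 at D2 and 3.68 and 10.3 at D7, in Vec and Cre. It fell by 3.77 (SE 0.70), adjusted p = 0.0113, and rose by 4.04 (SE 0.69) from D2 to D7, adjusted p = 0.014. Without Vec D0 the fall of Ddr1 alone was kept among the 5, without Vec D2 2 falls were kept, and without Cre D7 the D7 rise of Itga11 was lost.

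Laminins and other partners of type IV collagen had calls in both directions. Of 15 measured genes 10 were tested, and from D0 to D2 Lama4, Lamb1 and Lamc1 rose while Lama5 and Lamb2 fell (17.7% of all genes rose and 21.0% fell). Lamc1, the laminin chain shared by most trimers, had an RPKM of 57.9 in Vec D0, 61.1 in Cre D0, 177 in Vec 4h, 95.4 in Cre 4h, 192 in Vec D2, 96.6 in Cre D2, 81.5 in Vec D7 and 76.5 in Cre D7. Vec was above Cre at 4h and D2, as for Col4a1, and the lines were close at D0 and D7. Lamc1 rose by 1.22 (SE 0.31) at 4h, adjusted p = 0.0389, and by 1.16 (SE 0.31) at D2 against D0, adjusted p = 0.0323. The 4h call of Lamc1 was lost without Vec D0, Cre D0, Vec 4h, Cre 4h, Vec D7 or Cre D7, and with no genotype term. Its D2 call, with that of Lamb2, was lost without Vec D0 or Vec D2.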

How the data were processed

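Per the file headers, the authors deposited for each RNA library a read count and an RPKM value per RefSeq accession. The submitters' processing notes name CASAVA 1.8.2, SICER and mm9. Aligner, read counter and any use of strand: not given in the sources used here. Thus overlapping genes may share reads within the overlap, which for Col4a1 and Col4a2 is 22 bases of transcripts 6615 and 6426 bases long. The 22 ChIP samples of the 30 were not analysed here. Dividing counts by RPKM gave each library's total and each transcript's length. Of 29082 accessions, 28436 (97.8%) matched a symbol in the RefSeq table of GRCm38.p6, and the accession with the most reads stood for a gene.

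Deposited counts of 12581 genes at an RPKM of 1 or more in 2 or more libraries were fitted with edgeR 4.0.16 (R 4.3.3, quasi-likelihood, TMM scaling) as time plus genotype, with 3 residual degrees of freedom. A second model added genotype by late time and left 2. Their error is departure from additivity, so p-values measure the spread over these libraries and not that between independent cultures. p-values were adjusted by Benjamini-Hochberg over all tested genes, threshold 0.05. The code was tested on simulated counts. Cre and Vec within a time were compared by size on log2(RPKM + 1), with 95% Clopper-Pearson intervals on reads. Alternatives were median-of-ratios scaling, DESeq2 1.42.0, limma 3.58.1, other filters and pseudocounts, the longest accession, no genotype term and leaving out each library. The time counts by size within a line were added after seeing the data. Genes with a called change, a 2-fold difference or an RPKM of at least 10 anywhere were named with values. The members, lists and tests were chosen with earlier results of these data known.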

Additional observations from a re-analysis of the deposited data

Results flagged for a closer look

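For 7 collagen genes the Vec and the Cre library moved in opposite directions between the same 2 times, in log2(RPKM + 1) and by more than the SD of 0.166 that Cre minus Vec had over all genes at D0. With 1 library per genotype and time these differences were not tested. The SD of Cre minus Vec over all genes was larger after D0, at 0.45 at 4h, 0.448 at D2 and 0.456 at D7. The share of all genes with such opposite moves was not counted, so the 7 cannot be read as particular to collagen genes. From D0 to D2, Col3a1 changed by -0.75 in Vec and 0.19 in Cre, a difference of 0.94, and Col5a3 by -0.18 and 0.26, a difference of 0.43. From D0 to D7, Col16a1 changed by -0.69 and 0.18, a difference of 0.87, and Col3a1 by -0.36 and 0.48, a difference of 0.84. From D2 to D7, Col4a1 changed by -0.55 in Vec and 0.18 in Cre, a difference of 0.72, and Col4a2 by -0.44 and 0.43, a difference of 0.86. Over the same interval Col6a1 changed by 0.19 and -0.30, a difference of -0.49, and Col8a2 by -0.52 and 0.71, a difference of 1.23. Col3a1 was the one gene with opposite moves over 2 intervals from D0.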

How the results depend on the processing

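Cre and Vec were paired by time in the additive model. Pairing by replicate was not possible, since each group was a single library and no replicate numbers are shared. Of the 34 called changes of single collagen genes over time, re-run 530 times in all under the alternatives, 428 kept their call, 102 lost it and 0 reversed. The number of collagen genes called at 4h against D0 (2) was 5 with DESeq2, 4 with no filter on low values and 1 with no genotype term, and ranged from 0 to 3 when 1 library was left out. At D2 against D0 (16) it was 10 with a filter of RPKM 5, which left fewer genes to test, and 6 to 15 with 1 library left out. At D7 against D0 (6) it was 14 with DESeq2, 2 with the filter of 5 and 0 to 7 with 1 library left out. At D7 against D2 (10) it was 5 with the filter of 5, 17 with no filter and 4 to 11 with 1 library left out. The test of late against early genotype differences (0) gave 5 with DESeq2. Shares of all genes called by DESeq2 are not given here, so none of its counts stands beside a background. The 2 genes past the size limit at D7 became 0 with a pseudocount of 5 or a filter of 5. Within a line, D0 to D7 in Vec (7) gave 11 with a pseudocount of 0.5, D0 to 4h in Cre (0) gave 2 with 0.5, D0 to D2 in Cre (10) gave 6 with 5, and D0 to D7 in Cre (4) gave 2 with a pseudocount of 5 and 2 with the filter of 5. The cause was not tested for the other shifts. Median-of-ratios scaling moved no library by more than 0.12 (log2), Vec 4h, and changed no count of called collagen genes. In the maturation list it lost the D7 rise of Adamts2 against D0 and that of Serpinh1 against D2 (15 rises became 14). At 7.71 to 28.9 M reads, genes under an RPKM of 1 rest on few reads.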

Other observations

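The proportions of partner chains of one trimer were compared over the libraries. The RPKM of Col1a1 over that of Col1a2 lay between 1.25 (Vec D2) and 1.57 (Vec D7) over the 8 libraries, and Col4a1 over Col4a2 between 1.24 and 1.57. Col6a1 over Col6a2 ranged from 1.25 to 1.83 and Col5a1 over Col5a2 from 0.726 to 1.15, and Col6a3 over Col6a1 from 0.19 to 0.432. For 2 pairs from different collagens, Col3a1 over Col1a1 ranged from 0.32 in Cre D0 to 1.18 in Vec D2, the one library with more Col3a1 than Col1a1. Col4a1 over Col1a1 ranged from 0.0668 in Cre D0 to 1.34 in Vec D2, and was 0.222 in Cre D2. These ratios carry no replicate error.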
